A study of Mus musculus with 42 samples.

Results

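The zinc finger genes numbered Zfp700 to Zfp999 were followed across the bulk RNA-Seq libraries of a mouse colon series. Members were selected on 2 things, a symbol in that range and a mean normalized count (reads divided by a size factor for each library) of at least 10 over the 6 distal WT libraries of the P209T colony, 3 after dextran sulfate sodium (DSS) and 3 at baseline. Of 117 rows with such a symbol, 108 passed this limit, among 13566 genes that did so and 17589 genes listed. The choice of this group drew on the same 6 libraries, where Zfp758, Zfp943 and Zfp971 were seen to be low after DSS, so the values of that contrast are given as a description without a test. Just inside the limit were Zfp781, with a mean of 10.8, and Zfp879, with 12.4. Just outside were Zfp982, with 8.28, and Zfp936, with 6.13. The 9 rows below the limit were Zfp811, Zfp853, Zfp936, Zfp980, Zfp982, Zfp985, Zfp987, Zfp990 and a second row named Zfp976.

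The series compared WT mice with mice that lack the transcriptional corepressor MTG16 (Mtg16-null) or are homozygous for its point mutant P209T (T/T), in 42 libraries of 14 groups. MTG16 represses transcription through partners that include the E proteins, and P209T impairs that pairing. Mice were on a C57/BL6 background, at least 8 weeks old, and bred in independent colonies, so that each mutant had its own WT littermates. Crypts were isolated from proximal or distal colon at baseline, from distal colon after 2% DSS for 5 days and 4 days of recovery, and whole tumors were dissected after 10 mg/kg azoxymethane (AOM) and 3 cycles of 3% DSS. The distal baseline groups held 4 WT and 4 Mtg16-null libraries of the null colony and 3 WT and 4 T/T libraries of the P209T colony. After DSS there were 3 WT, 4 Mtg16-null, 3 WT of the P209T colony and 3 T/T libraries. Proximal groups held 2 libraries each, and the tumor groups 3 WT and 3 T/T libraries. Nothing in the labels says that libraries of a group came from separate mice, so p-values measure the spread between libraries. In bulk samples, fewer cells of a type and less RNA per cell cannot be told apart.

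Most of these genes encode C2H2 zinc finger proteins, which read DNA with tandem fingers, each a short loop that holds a zinc ion between paired cysteines and paired histidines. A large share carries a KRAB (Krüppel-associated box) domain at the amino end, which recruits TRIM28 (KAP1). TRIM28 in turn brings the histone methyltransferase SETDB1, HP1 proteins and the NuRD complex, and these proteins are known for silencing endogenous retroviruses and other transposable elements. KRAB zinc finger genes lie in tandem clusters that expanded recently in rodents, so that near copies are frequent. Members that lack KRAB are older and more diverse, and several act in development or differentiation.

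Among the 108 members, 80 encoded a protein with the KRAB letter pattern and 28 did not. Members called with or without KRAB are those with or without a match to this pattern. A member with no match may still encode the domain. A protein was annotated for 106, while Zfp783 and Zfp939 were transcribed pseudogenes and could not match. The median number of fingers was 11, with a range of 0 to 23. Transcripts of the members were poor in G and C, with a median GC content of 41.1% against 49.8% for all 13566 genes, and of 40.03% over the members with KRAB. In 9 members (Zfp708, Zfp781, Zfp935, Zfp960, Zfp965, Zfp966, Zfp968, Zfp973 and Zfp991) at least 50% of the 150-base windows of the transcript also occurred in another gene, so that their counts could be split between copies and are uncertain. No such window was found in 71 members.

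The 68 members in 11 clusters of at least 4 included 13 with KRAB on chromosome 17 between 21567008 and 22867134 (GRCm38), among them Zfp943 (21962552 to 22071168, plus strand) and Zfp758 (22361453 to 22377281, plus strand). Another 9 lay on chromosome 2 between 174643534 and 178078476, with Zfp971 (178023284 to 178034022, plus strand) and Zfp966 (175918881 to 175931100, minus strand). The 250 bases before the RefSeq starts of these 4 genes are shown because they make visible how similar neighbouring members are. The spans above are from GENCODE, whose starts of Zfp758 and Zfp943 lie a few bases upstream, so that these stretches reach into those spans. They are from RefSeq (GRCm38.p6), written 5′ to 3′ on the strand of the gene, at chr17:22361213-22361462, chr17:21962309-21962558, chr2:178023034-178023283 and chr2:175931101-175931350, with capitals for CANNTG, the E-box letters that E proteins and their partners bind.
Zfp758: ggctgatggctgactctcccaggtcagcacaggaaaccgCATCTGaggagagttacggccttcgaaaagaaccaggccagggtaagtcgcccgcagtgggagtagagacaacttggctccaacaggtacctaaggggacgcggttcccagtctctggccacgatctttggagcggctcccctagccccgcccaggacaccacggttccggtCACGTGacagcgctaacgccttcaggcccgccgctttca
Zfp943: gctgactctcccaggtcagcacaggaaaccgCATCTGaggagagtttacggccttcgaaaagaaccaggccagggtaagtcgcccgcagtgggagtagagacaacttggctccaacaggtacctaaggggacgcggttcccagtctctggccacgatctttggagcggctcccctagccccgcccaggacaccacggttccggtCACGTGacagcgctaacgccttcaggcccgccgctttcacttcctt
Zfp971: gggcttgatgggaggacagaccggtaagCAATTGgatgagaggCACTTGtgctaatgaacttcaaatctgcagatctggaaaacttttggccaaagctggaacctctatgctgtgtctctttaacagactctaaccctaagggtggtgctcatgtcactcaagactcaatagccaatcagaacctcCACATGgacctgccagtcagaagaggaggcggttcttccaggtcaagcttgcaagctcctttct
Zfp966: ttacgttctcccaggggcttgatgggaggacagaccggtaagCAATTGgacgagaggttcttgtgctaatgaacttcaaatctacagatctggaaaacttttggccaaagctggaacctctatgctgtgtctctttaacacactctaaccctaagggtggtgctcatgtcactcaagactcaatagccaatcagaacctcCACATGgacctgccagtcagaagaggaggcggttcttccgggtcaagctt

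In the window from 250 bases before to 50 after the start, Zfp758 and Zfp943 shared an identical run of 248 bases, and a CATCTG and a CACGTG stood in both. Zfp971 and Zfp966 shared a run of 98 bases, while the longest run common to Zfp758 and Zfp971 was 8 bases. The series concerns a partner of E-box factors, so CANNTG was counted, for both strands, in the 250 bases before the start. It occurred in 75.5% of the 94 member promoters matched by symbol and in 66% of all 27025 promoters. CACGTG, a subset of it, occurred in 13.8% and 6.05%, and CAGCTG, another subset, in 11.7% and 12.8%. Promoter GC, over the same 250 bases, did not set the members apart as transcript GC did, with medians of 52.2% for members and 52% for all promoters. A match to these letters is a description and not a binding site.

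The stretch of 63 bases that encodes the first finger that is followed by a linker, without that linker, is shown for the 4 genes above and for 2 members without KRAB, Zfp771 and Zfp787, that were not lower after DSS. The codons of the paired cysteines and histidines are in capitals, and the sequences were read from the GENCODE coding sequences (GRCm38) at chr17:22375417-22375479 (exon 3 of 3), chr17:21992478-21992540 (exon 4 of 4), chr2:178033006-178033068 (exon 4 of 4), chr2:175921217-175921279 (exon 4 of 4), chr7:127253856-127253918 (exon 3 of 3) and chr7:6132987-6133049 (exon 3 of 3).
Zfp758: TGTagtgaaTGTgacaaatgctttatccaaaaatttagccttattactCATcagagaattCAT
Zfp943: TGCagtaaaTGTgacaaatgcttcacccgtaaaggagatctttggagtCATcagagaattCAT
Zfp971: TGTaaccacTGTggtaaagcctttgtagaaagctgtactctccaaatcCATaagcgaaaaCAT
Zfp966: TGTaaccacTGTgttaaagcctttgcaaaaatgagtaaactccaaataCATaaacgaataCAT
Zfp771: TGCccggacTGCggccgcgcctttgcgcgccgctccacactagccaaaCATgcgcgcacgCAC
Zfp787: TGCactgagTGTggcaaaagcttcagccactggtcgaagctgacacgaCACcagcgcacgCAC

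These stretches had a GC content of 30.2% in Zfp758, 39.7% in Zfp943 and Zfp971 and 31.7% in Zfp966. In contrast, Zfp771 had 71.4% with 10 CpG sites, and Zfp787 had 58.7% with 4.

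In the distal WT crypts of the P209T colony, where members were chosen, KRAB zinc finger transcripts were far lower after DSS. The median log2 difference (DSS minus baseline, on log2 of normalized count + 1) was -1.86 over the 108 members and 0.004 over all 13566 genes. It was -2.23 over the 80 members with KRAB, of which 76 were below 0, and -0.12 over the 28 without, of which 15 were. In 83 members every DSS library lay below every baseline library, against 29.3% of all genes, and in 11 every DSS library lay above, against 26%. Since the rule used this contrast, nothing is read from these shares. In 78 members the DSS mean was under 50% of baseline, and in 48 under 25%. The genes from Zfp1 to Zfp699 had a median of -0.88, with -1.63 for the 78 with KRAB and -0.34 for the 131 without. Over the 77 members with under 1% of windows shared with another gene the median was -1.65.

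Markers of cell types differed between the same libraries. Every DSS library lay above every baseline library in 4 of 5 goblet, 5 of 8 epithelial, 3 of 4 fibroblast, 2 of 8 myeloid, 3 of 6 enteroendocrine and 2 of 8 cycling markers, and below in 3 of 7 T cell, 3 of 8 cycling, 1 of 5 B and plasma cell and 1 of 6 enteroendocrine markers. The 3 smooth muscle and 2 endothelial markers listed overlapped. Summed goblet markers had 541113 to 651766 scaled counts at baseline and 1086650 to 1214940 after DSS. Summed cycling markers had 39091 to 62815 at baseline and 20652 to 26262 after DSS. The part of these differences in the members' values was not tested.

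Zfp971 had normalized counts of 287, 278 and 248.5 at baseline and 37.7, 32.0 and 48.1 after DSS. Zfp943 had 636, 725 and 610 at baseline and 108, 85.8 and 129 after DSS. Zfp758 had 458, 477 and 420 at baseline and 70.8, 63.1 and 89.8 after DSS. For each of these KRAB genes the DSS libraries were 6.06- to 6.90-fold lower on average, without overlap, and DSS replicate 3 was the highest of its group.

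The largest decreases were in Zfp966, at 441, 389 and 324 normalized counts at baseline and 14.3, 1.03 and 59.6 after DSS, and in Zfp973, at 152, 137 and 140 and then 7.14, 0 and 12.2. Both are counts with many shared windows (68.9% and 73.8%), and they share a run of 194 identical bases in the promoter window described above. Zfp711 followed, with 47.3, 42.7 and 40.6 at baseline and 0.649, 1.03 and 8.16 after DSS; it is an X-linked zinc finger gene without KRAB, associated with intellectual disability. Zfp850, Zfp760, Zfp808, Zfp976 and Zfp975, all with KRAB, had log2 differences of -3.78, -3.66, -3.64, -3.57 and -3.48. The DSS mean was under 10 in 6 members, and small counts set the size of such differences.

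The 5 members with the largest increases had a transcript GC of 49.97% to 60.6%. Zfp750, a regulator of epidermal differentiation, had 645, 824 and 801 normalized counts at baseline and 1369, 1268 and 1111 after DSS. Zfp703, an atypical zinc finger repressor that is amplified in some breast cancers, had 1503, 1524 and 1282 at baseline and 2414, 2592 and 1735 after DSS. Zfp786, Zfp827 and Zfp746 (known as PARIS, a repressor of the PGC-1 alpha gene) had log2 differences of 0.48, 0.41 and 0.40. Of these 5, only Zfp786 matched the KRAB letter pattern used here.

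The most abundant member was Zfp706, which encodes a protein of 76 residues with 1 finger, at a mean normalized count of 8595, followed by Zfp710 (4005), Zfp740 (3748), Zfp704 (2788) and Zfp703 (1842). Per kilobase of transcript, baseline levels were 1970 for Zfp706, 946 for Zfp740, 620 for Zfp710, 559 for Zfp768 and 557 for Zfp787. KRAB members were less abundant, with a median of 98.5 and a maximum of 393 normalized counts per kilobase at baseline, the latter in Zfp809. The median without KRAB was 152. Zfp706 differed little after DSS, with 8374, 8215 and 8872 against 8650, 8292 and 9166 at baseline.

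Transcript GC moved with these differences in all genes. Among members the median log2 difference was -2.77 below 40% GC (44 genes), -1.82 from 40 to 45% (32), -1.18 from 45 to 50% (12), -0.02 from 50 to 55% (11) and 0.27 at 55% or more (9). Genes with no Zfp symbol had -1.88, -1.19, -0.22, 0.27 and 0.37 in the same ranges. Spearman's rho with transcript GC, across genes that share their libraries and so are not independent, was 0.76 over the 108 members and 0.70 over all genes. After the trend of each library with GC was removed, a choice made after seeing the data, the median of the members was -0.44, with -0.66 for KRAB members (66 of 80 below 0) and -0.23 for the others. By cluster, the 13 KRAB genes of chromosome 17 had a median of -2.73 at a median GC of 37.9%, while the 4 members at 127244274 to 127406822 of chromosome 7 (Zfp771, Zfp768, Zfp747 and Zfp764) had 0.08 at 56.2%. Below 40% GC the clusters were not in order of GC. The one with the lowest GC, on chromosome 4 (36.7%), had -2.16. Those on chromosome 13 (38.2%) and at 41633203 to 43593235 of chromosome 7 (39.2%) had -2.82 and -2.99. In the chromosome 4 cluster, Zfp992, Zfp991 and Zfp984 share 21.3%, 62.8% and 16.2% of windows with another gene, so that these counts are uncertain. In every DSS comparison, the number that opens the library names (library-name number) differed between DSS and baseline libraries. The labels do not say what this number stands for, so that treatment and any batch it marks cannot be told apart.

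**Figure D1:**
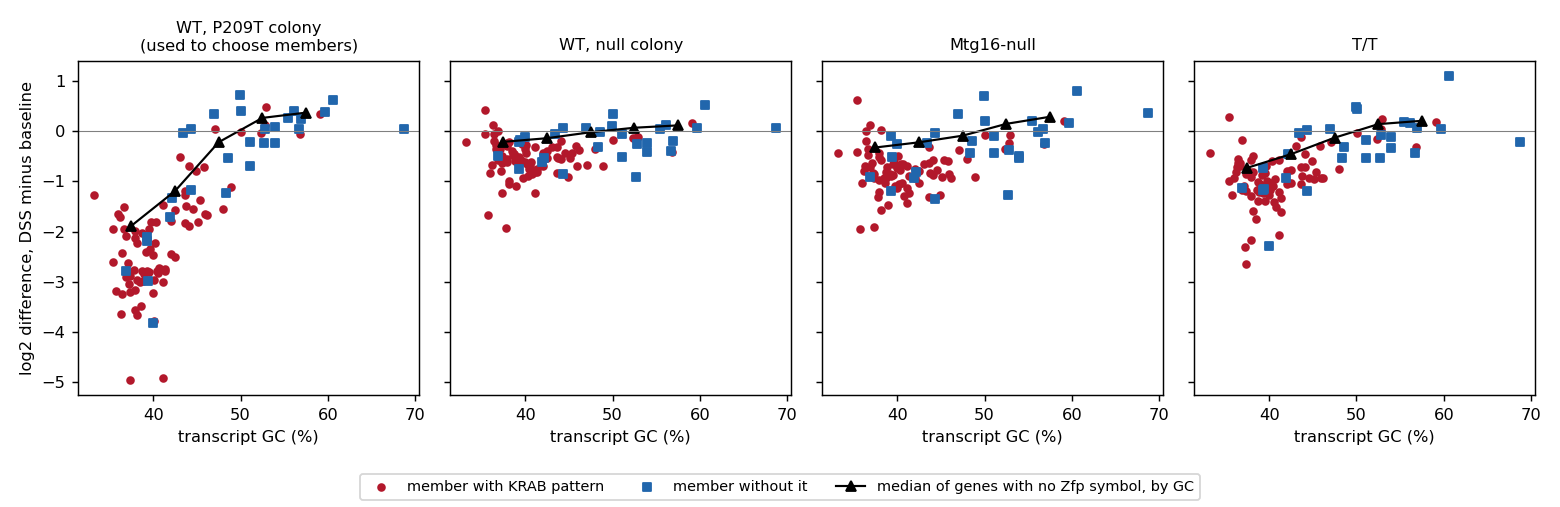
Log2 difference after DSS (y axis, DSS minus baseline) against transcript GC (x axis, %) for each member, red with the KRAB pattern and blue without, in the 4 DSS comparisons; black triangles are medians of genes with no Zfp symbol by GC range. In the first panel, whose libraries chose the members, members below 40% GC had a median of -2.77 and other genes of that range -1.88, and the slope was smaller in the other panels.

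Whether the KRAB transcripts were lower after DSS in other mice was tested in 3 sets of libraries that the rule did not use. The T/T set has the same library-name numbers, at baseline and after DSS, as the contrast that chose the members. It is therefore not independent of any batch that these numbers mark. In Mtg16-null crypts 53 of 108 members fell and 0 rose after DSS (limma on log2 of scaled count + 1, where reads of both tables were scaled together, 4 against 4 libraries, Benjamini-Hochberg adjusted p over 14425 genes; 10.6% of all genes fell and 13.5% rose). The median log2 difference was -0.68 for members and 0.02 for all genes. Of the 80 KRAB members 46 fell, with a median of -0.78, and of the 28 others 7 fell, with a median of -0.23.

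Zfp950, a KRAB gene of chromosome 19, fell by 1.94 ± 0.39 (SE) on the log2 scale (limma, adjusted p = 0.0098). Its scaled counts were 885, 1220, 1555 and 713 at baseline and 160, 371, 504 and 181 after DSS, without overlap. Zfp966 fell by 1.90 ± 0.30 (adjusted p = 0.0032), from 316, 345, 570 and 418 to 72.5, 163, 129 and 84.9. Zfp760 and Zfp738 fell by 1.56 and 1.47, and Zfp973, with its 73.8% shared windows, by 1.43 (adjusted p = 0.031). The call of Zfp973 was lost without DSS replicate 1 or 4 or baseline replicate 1, 3 or 4 (limma, adjusted p = 0.051 to 0.087). Zfp809, known to silence murine leukemia proviruses with TRIM28, fell by 0.92 ± 0.16 (adjusted p = 0.0058), from 748, 944, 769 and 791 to 363, 540, 382 and 448, again without overlap.

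Of the genes in the rule, Zfp943 fell by 0.63 ± 0.19 in Mtg16-null crypts (adjusted p = 0.041), from 570, 638, 490 and 542 to 292, 485, 387 and 307. This call was lost when any library other than DSS replicate 2 was left out (limma, adjusted p = 0.054 to 0.12), with the replicate block (0.056), by edgeR (0.0501) and with the GC trend removed (0.33). Zfp971 had a difference of -0.66 ± 0.25 (adjusted p = 0.083) and Zfp758 of -0.42 ± 0.22 (adjusted p = 0.18), and their groups overlapped. Of the 13 KRAB genes in the chromosome 17 cluster 10 fell, and of the 5 KRAB genes at 41633203 to 43593235 of chromosome 7 (Zfp788, Zfp976, Zfp975, Zfp715 and Zfp719) all 5 did. In the cluster at 127244274 to 127406822 of chromosome 7, 0 of 4 did; their median was -0.03. A further exception was the cluster at 146449023 to 147848366 of chromosome 4 (Zfp992, Zfp991, Zfp984 and Zfp933, all with KRAB), where 1 of 4 fell and the median was 0.06, at a median GC of 36.7%. Of their windows, Zfp992, Zfp991 and Zfp984 share 21.3%, 62.8% and 16.2% with another gene, so that these counts are uncertain. Clusters were described after their values were seen.

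The count of 53 depended on single libraries: it was 24 without DSS replicate 4, 26 without DSS replicate 1, 32 without baseline replicate 1 or 3, and 34 without baseline replicate 4. With the GC trend removed, 44 members fell and 1 rose, with a median of -0.44 (-0.46 with KRAB and -0.17 without). The shares of all genes given above belong to the main fit, so that counts from these other fits are a description. In Mtg16-null crypts the same GC ranges had medians, in rising order of GC, of -0.77, -0.82, -0.56, -0.36 and 0.17 for members and of -0.32, -0.22, -0.09, 0.15 and 0.29 for genes with no Zfp symbol. Myeloid markers moved too: 7 of 8 rose, with a summed scaled count of 2683 to 8839 at baseline and 11954 to 27499 after DSS, and 3 of the 4 fibroblast, both smooth muscle and 4 of the 6 B and plasma cell markers tested rose. Of other lists, 3 of 8 cycling markers rose, while 4 of 6 enteroendocrine markers and 1 of 5 goblet markers fell, and 0 of 7 T cell and 0 of 2 endothelial markers were called. The epithelial markers had 792031 to 940912 at baseline and 762301 to 1011400 after DSS, with 0 of 8 called. Their part in the members' decrease was not tested.

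In WT crypts of the null colony, 0 of 108 members passed the test in either direction (limma, 3 DSS against 4 baseline libraries; 3.71% of all genes rose and 1.24% fell), and edgeR also called 0. At an unadjusted p under 0.05 there were 30 members, and the smallest adjusted p was 0.073, for Zfp703. The median was -0.43, with 96 members below 0; in 19 members every DSS library lay below every baseline library, against 8.58% of all genes. With the GC trend removed the median was -0.28 (-0.32 with KRAB and -0.10 without), with 85 members below 0. DSS replicate 2 stood close to baseline. Zfp950, for example, had 1158, 1180, 1583 and 984 at baseline and 155, 1054 and 339 after DSS. Without DSS replicate 2, 17 members fell and 1 rose, with a median of -0.60, and without DSS replicate 1 the median was -0.18. The shares of all genes given here belong to the fit with all libraries, so that the count of 17 is a description.

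The same replicate set the values of the genes in the rule. Zfp971 had 246, 242, 356 and 293 at baseline and 103, 274 and 164 after DSS, a difference of -0.75 ± 0.31 (limma, adjusted p = 0.20). When 1 library was left out, this difference lay between -1.10 and -0.40 (limma, adjusted p = 0.034 to 0.49). Zfp943 had 652, 527, 509 and 532 at baseline and 287, 635 and 447 after DSS, a difference of -0.35 ± 0.25 (adjusted p = 0.44). Zfp758 had 475, 347, 337 and 325 at baseline and 289, 413 and 367 after DSS, a difference of -0.06 ± 0.21 (adjusted p = 0.89) whose sign turned when DSS replicate 1 was left out. The groups of all 3 genes overlapped. Of 8 myeloid markers 2 rose here, as did 1 of 4 fibroblast and 1 of 3 smooth muscle markers, and 0 markers of the other lists were called.

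Whether Mtg16-null and WT crypts of this colony responded to a different extent was tested by the interaction term. The median over members was -0.23, with 86 of 108 below 0, but 0 members passed the test (limma over 14307 genes, without a replicate block) and 0 had an unadjusted p under 0.05; edgeR also called 0. The median was -0.49 without WT DSS replicate 1, -0.09 without WT DSS replicate 2 and -0.14 without Mtg16-null DSS replicate 1.

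In T/T crypts, Zfp703 rose after DSS and 0 of the other members tested passed (limma, 3 against 4 libraries, 107 members; 2.47% of all genes rose and 1.59% fell). The median was -0.81, with 94 members below 0, and in 4 members every DSS library lay below every baseline library, against 9.2% of all genes. The median was -1.24 without DSS replicate 2 and -0.43 without DSS replicate 3, and with the GC trend removed it was -0.28, with 82 members below 0. On removal of that trend the median of KRAB members moved from -0.93 to -0.30, and that of the others from -0.26 to -0.25. Libraries within each group were far apart. Zfp943 had 135, 539, 645 and 429 at baseline and 163, 375 and 91.2 after DSS, so that baseline replicate 1 lay among the DSS libraries and DSS replicate 2 approached baseline. Zfp971 had 46.9, 277, 272 and 171 at baseline and 62.7, 167 and 37.1 after DSS, and Zfp758 had 103, 379, 443 and 268 and then 116, 200 and 98.5. The groups overlapped for all 3 genes, with differences of -1.08 ± 0.63, -1.09 ± 0.72 and -0.98 ± 0.51 (adjusted p = 0.33, 0.36 and 0.29). Without DSS replicate 2, 4 members fell (Zfp763, Zfp873, Zfp949 and Zfp959, named after their values were seen), and Zfp703 rose. The shares of all genes given here belong to the fit with all libraries, so that this count is a description. In T/T crypts 2 of 8 myeloid, 1 of 6 B and plasma cell, 1 of 5 goblet and 1 of 6 enteroendocrine markers rose, and 0 of the other lists were called. The part of these markers in the members' values was not tested.

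Zfp703 had 1375, 1251, 1322 and 1287 scaled counts in T/T crypts at baseline and 2998, 2218 and 3308 after DSS, a rise of 1.10 ± 0.17 (adjusted p = 0.018). All DSS libraries lay above all baseline libraries. This call was lost without DSS replicate 1 or baseline replicate 2 or 3, where adjusted p reached 0.11. In WT crypts of the null colony Zfp703 had 1380, 1378, 1390 and 1282 at baseline and 2384, 1763 and 1799 after DSS, also without overlap (difference 0.53 ± 0.15, adjusted p = 0.073). In Mtg16-null crypts it had 1264, 3240, 1343 and 1628 at baseline and 3398, 2410, 3065 and 3318 after DSS (0.80 ± 0.28, adjusted p = 0.061), with baseline replicate 2 among the DSS libraries. When 1 library was left out, the adjusted p of Zfp703 (limma) was 0.046 to 0.18 in WT crypts of the null colony. In Mtg16-null crypts it was 0.00066 to 0.15, with differences of 0.65 to 1.11. Of other members with a known function, Zfp750, Zfp827 (a telomere and NuRD-associated protein) and Zfp746 had differences of 0.49, 0.45 and 0.16 in T/T, 0.70, 0.21 and -0.02 in Mtg16-null and 0.11, 0.35 and 0.12 in WT crypts of the null colony, and none of them passed in the main fit. Zfp830, which acts in pre-mRNA splicing, had -0.31, -0.19 and -0.02 and did not pass either. With the GC trend removed, Zfp750 passed in T/T crypts (0.46, limma, adjusted p = 0.046). Its difference in Mtg16-null crypts ranged from 0.22 to 1.02 when 1 library was left out.

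**Figure D2:**
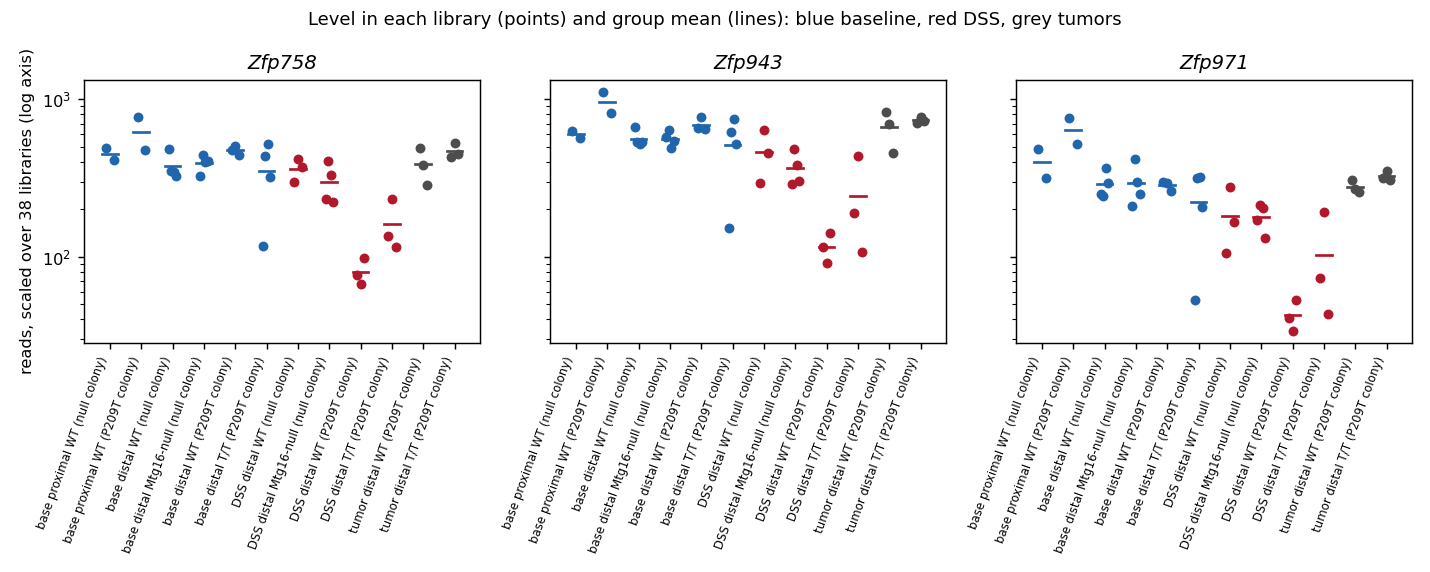
Scaled counts (y axis, log scale, reads scaled together over 38 libraries) of Zfp758, Zfp943 and Zfp971 in each library (points) and the mean of each group (lines), by group. In the WT libraries of the P209T colony after DSS the levels were 66.8 to 98.3 for Zfp758, 91.0 to 141 for Zfp943 and 34.0 to 52.7 for Zfp971, and in the 6 tumors 285 to 531, 456 to 830 and 257 to 351.

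To set all groups side by side, reads of 38 libraries were scaled together, and each library was described by the median log2 difference of the members from the mean of the 7 baseline distal WT libraries. For KRAB members this was -0.12 to 0.16 in the baseline distal WT libraries of the null colony and -0.20 to 0.11 in Mtg16-null. It was -0.03 to 0.06 in the baseline distal WT libraries of the P209T colony. In T/T crypts at baseline replicate 1 stood apart at -1.61, while replicates 2, 3 and 4 had 0.03, 0.10 and -0.35. After DSS the KRAB medians were -2.12, -2.79 and -1.46 in WT of the P209T colony and -1.56, -0.41 and -2.15 in T/T. They were -1.05, -0.06 and -0.34 in WT of the null colony and -1.10, -0.44, -0.75 and -1.01 in Mtg16-null. Members without KRAB stayed between -0.49 and 0.09 in all 38 libraries.

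Several libraries with low KRAB transcripts were also low in other AT-rich transcripts. The 3520 genes with no Zfp symbol and under 45% GC had a median of -0.67 in T/T baseline replicate 1, where KRAB members had -1.61, and of -1.52, -1.74 and -0.48 in the WT libraries of the P209T colony after DSS. In the null colony they had -0.53, 0.10 and -0.06 in WT after DSS and -0.46, -0.03, -0.26 and -0.39 in Mtg16-null. In WT replicates 2 and 3 and Mtg16-null replicate 2 this was within the range of the baseline distal WT and Mtg16-null libraries of this colony (-0.08 to 0.12). Their KRAB medians were -0.06, -0.34 and -0.44. In WT replicate 1 and Mtg16-null replicates 1, 3 and 4 it lay below that range, at KRAB medians of -1.05, -1.10, -0.75 and -1.01. The part of RNA quality or library preparation in this was not tested. Over these groups Zfp943 averaged 690 ± 67.2 (SD, n = 3) at baseline and 116 ± 25.1 (n = 3) after DSS in WT of the P209T colony. In Mtg16-null it averaged 562 ± 61.4 (n = 4) and 364 ± 89.5 (n = 4), and in WT of the null colony 562 ± 66.5 (n = 4) and 462 ± 173 (n = 3).

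**Figure D3:**
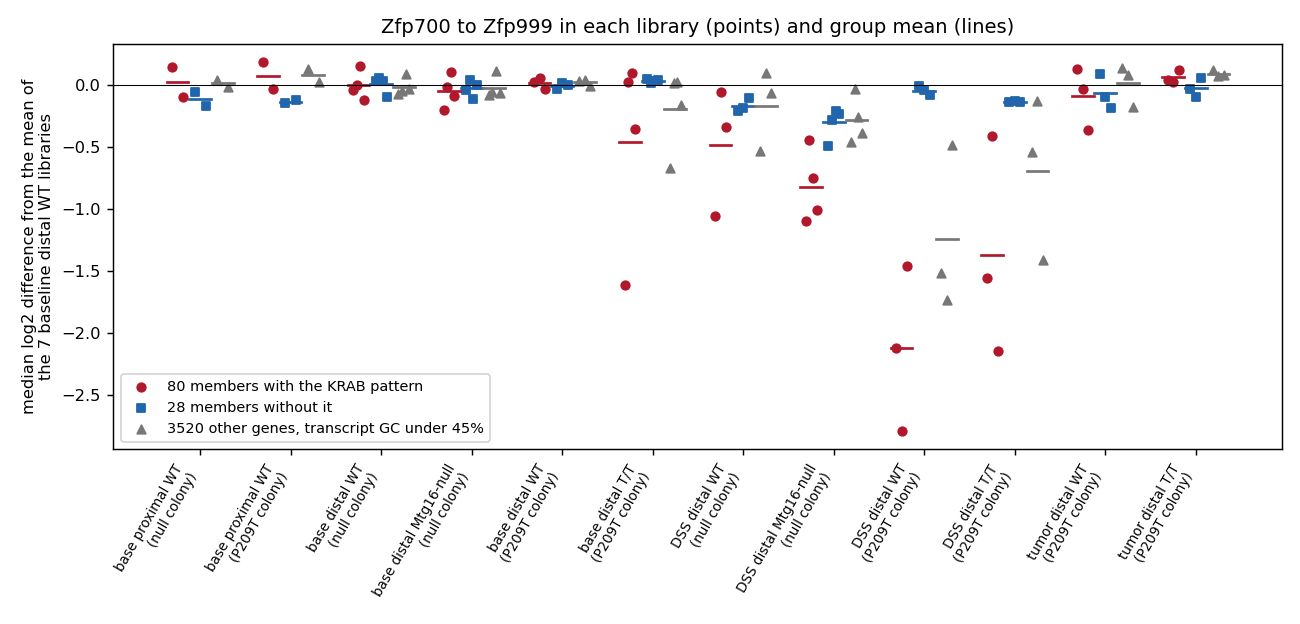
Median log2 difference from the mean of the 7 baseline distal WT libraries (y axis) in each library (points) and group mean (lines), for 80 members with the KRAB pattern (red), 28 without it (blue) and 3520 other genes with transcript GC under 45% (grey). Red points reached -2.79 in WT of the P209T colony after DSS and -1.61 in T/T baseline replicate 1, whereas blue points stayed between -0.49 and 0.09.

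Genotype comparisons without a replicate block gave 0 members past the threshold. They share libraries with the comparisons above: the baseline and DSS libraries of each genotype are the same. At distal baseline the median difference was -0.04 for Mtg16-null against WT (0 of 108 members in either direction by limma and by edgeR, 1 at an unadjusted p under 0.05; 0.239% of all genes rose and 0% fell). For T/T against WT, whose WT libraries also chose the members, it was -0.40 (0 of 108, also by edgeR, 0 unadjusted; 0.0369% rose and 0% fell), -0.05 without T/T replicate 1 and -0.09 with the GC trend removed. In proximal crypts the medians were -0.09 for Mtg16-null (0 of 107, 1 unadjusted; 0.0359% of all genes rose and 0.0287% fell; in 26 members both mutant libraries lay below both WT libraries, against 18.1% of all genes) and 0.05 for T/T (0 of 107, 4 unadjusted; 0.138% and 0.0944%), with 2 libraries a group and no edgeR fit. These proximal medians changed sign with single libraries: that of Mtg16-null was 0.02 without Mtg16-null replicate 2 and -0.20 without Mtg16-null replicate 1 or WT replicate 2, and that of T/T was -0.08 without WT replicate 2 and 0.13 without WT replicate 1. Zfp943, at 602, 482, 468 and 491 in distal WT and 522, 586, 444 and 496 in Mtg16-null at baseline, had a difference of 0.00 ± 0.13.

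After DSS, Mtg16-null against WT gave 0 of 108 members (limma and edgeR; 1 unadjusted; 0.38% of all genes rose and 0.249% fell) and a median of -0.31. No label pairs these libraries, but same-numbered ones deviated together (correlations 0.317 to 0.554 over 3 pairs), for a reason that was not tested. A replicate block was chosen from that pattern in the same data. With it, Zfp703 was higher in Mtg16-null by 0.56 ± 0.11 (limma, adjusted p = 0.017) and Zfp871 lower by 0.53 on the log2 scale. The median moved from -0.57 without WT replicate 1 to -0.09 without WT replicate 2. T/T against WT after DSS gave 0 of 106 (limma and edgeR; 5 unadjusted; 0% of all genes rose and 0% fell) and a median of 0.55, with 83 members above 0; this comparison shares its WT libraries with the contrast that chose the members. With the GC trend removed the median was 0.03. It was 0.097 without T/T replicate 2, 0.96 without T/T replicate 3, 0.29 without WT replicate 2 and 0.88 without WT replicate 3. In tumors, T/T against WT gave 0 of 108 (limma and edgeR, 0 unadjusted; 0% of all genes in either direction) with a median of 0.12, which was -0.02 without WT replicate 3 and 0.23 without WT replicate 1.

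Tumors were compared with distal crypts in T/T mice, whose libraries the rule did not use; the crypt libraries are those of the T/T DSS comparison. All tumors had 1 library-name number and all these crypts another, so that tissue and any batch it marks cannot be told apart. Members moved in both directions: 17 rose and 11 fell (limma, 3 tumors against 4 crypt libraries, 108 members; 33.3% of all genes rose and 28.6% fell). The median was 0.55 against 0.13 for all genes, and 0.15 with the GC trend removed. The median of 0.55 rests on crypt replicate 1, described above: without it the median was 0.13, with 28 members higher and 11 lower. The count of members called in either direction was 28 with all libraries, 16 without tumor replicate 1 and 15 without tumor replicate 3. The shares of all genes given here belong to the fit with all libraries, so that counts from the other fits are a description. KRAB members made up 10 of the 17 that rose and 3 of the 11 that fell.

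Zfp711 rose most, by 2.45 ± 0.54 (limma, adjusted p = 0.0052), from 10.97, 63.6, 37.2 and 31.8 scaled counts in crypts to 192, 134 and 195 in tumors, without overlap. Zfp703 rose by 1.21 ± 0.10 (adjusted p = 3.3e-05), from 1610, 1546, 1654 and 1631 to 3699, 3311 and 4221. Zfp781, Zfp992, Zfp940 and Zfp831 rose by 1.81, 1.80, 1.49 and 1.48; the first has 89% shared windows. The call of Zfp781 (limma, adjusted p = 0.022) was lost without tumor replicate 2 or 3 (0.067 and 0.066), and that of Zfp992 (0.022) without tumor replicate 1, 2 or 3 (0.0503, 0.069 and 0.062). Among members that fell were Zfp775, by 0.84 ± 0.20, from 843, 621, 513 and 553 to 358, 291 and 398, and Zfp768, by 0.76 ± 0.09, from 1782, 1623, 1718 and 1864 to 1012, 965 and 1130. Zfp707, Zfp710 and Zfp787 fell by 0.68, 0.59 and 0.55. The genes of the rule did not pass: Zfp943 had 777, 858 and 796 in tumors and 158, 666, 806 and 544 in crypts (adjusted p = 0.22), where crypt replicate 1 alone stood apart.

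Whole tumors hold more than epithelium, and marker genes moved with the members. All 6 fibroblast, 5 smooth muscle and 5 endothelial markers rose, as did 6 B and plasma cell markers and 7 of 8 myeloid markers, while 1 myeloid marker and 7 of 8 epithelial markers fell. All 5 goblet and 6 enteroendocrine markers tested fell, 3 of 7 T cell markers rose and 1 fell, and 2 of 8 cycling markers rose. Summed fibroblast markers had 26.0 to 1132 scaled counts in crypts and 108146 to 151725 in tumors. The part of these cells in the members' values was not tested.

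Along the baseline colon, Zfp775 and Zfp750 were higher in distal crypts and Zfp703 in proximal crypts. Between 7 distal and 4 proximal WT libraries of both colonies, 16 of 108 members were higher in distal and 11 in proximal crypts (limma; 20.1% and 22% of all genes). Of the 28 members without KRAB, 10 were higher in distal and 5 in proximal crypts, against 6 and 6 of the 80 with KRAB. The median over members was -0.02. Of the 7 distal libraries, 3 are the baseline libraries of the P209T colony that chose the members, so these calls are not independent of that choice.

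Zfp775 was higher in distal crypts by 1.60 ± 0.13 (adjusted p = 2.1e-07), at 465 to 546 normalized counts in the 7 distal libraries, with a median of 534, and 129 to 217 in the 4 proximal ones. Zfp750 was higher by 1.39 ± 0.12, at 591 to 903 in distal and 254 to 344 in proximal libraries. Zfp879 (1.28), Zfp710 (0.81) and Zfp704 (0.81) followed. On the proximal side, Zfp703 was higher by 1.11 ± 0.09 on the log2 scale (adjusted p = 3e-07), at 1155 to 1419 in distal and 2465 to 3363 in proximal libraries. Zfp773, Zfp992 and Zfp991 had differences (distal minus proximal) of -1.16, -1.11 and -1.07. Zfp831 was also higher there, at 12.8 to 31.6 in distal and 56.5 to 79.2 in proximal libraries. The ranges of Zfp775, Zfp750, Zfp703 and Zfp831 did not overlap between segments.

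The genes of the rule are given here as a description, since their distal levels entered it. Zfp971 had a difference (distal minus proximal) of -0.81 ± 0.19, at 215 to 318 in distal and 432, 284, 673 and 465.7 in proximal libraries. Zfp943 and Zfp758 had differences of -0.31 and -0.35, and the libraries of both segments overlapped for all 3 genes. Marker genes differed between the segments too. Of the markers tested, 6 of 7 T cell, 2 of 6 B and plasma cell, 4 of 6 enteroendocrine, 1 of 4 fibroblast, 1 of 2 endothelial, 1 of 8 cycling, 2 of 8 epithelial, 1 of 7 myeloid and 1 of 5 goblet markers were lower in distal crypts. Higher there were 4 of 5 goblet, 4 of 7 myeloid, 3 of 8 epithelial, 1 of 6 enteroendocrine and 1 of 4 smooth muscle markers. Summed T cell markers had 297 to 1172 normalized counts in distal and 2004 to 3120 in proximal libraries, and summed goblet markers 476036 to 903906 and 258671 to 298887. The part of these markers in the members' differences was not tested. Proximal and distal libraries differed in part in their library-name numbers. With that number as a covariate, 8 members were higher in distal and 3 in proximal crypts; Zfp775 (1.39), Zfp750 (1.51), Zfp710 (0.78), Zfp704 (0.81) and Zfp703 (-1.32) remained among them, while Zfp879, Zfp831, Zfp773, Zfp992, Zfp991 and Zfp971 did not. The shares of all genes given for the segments belong to the fit without this covariate, so that the counts with it are a description.

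**Figure D4:**
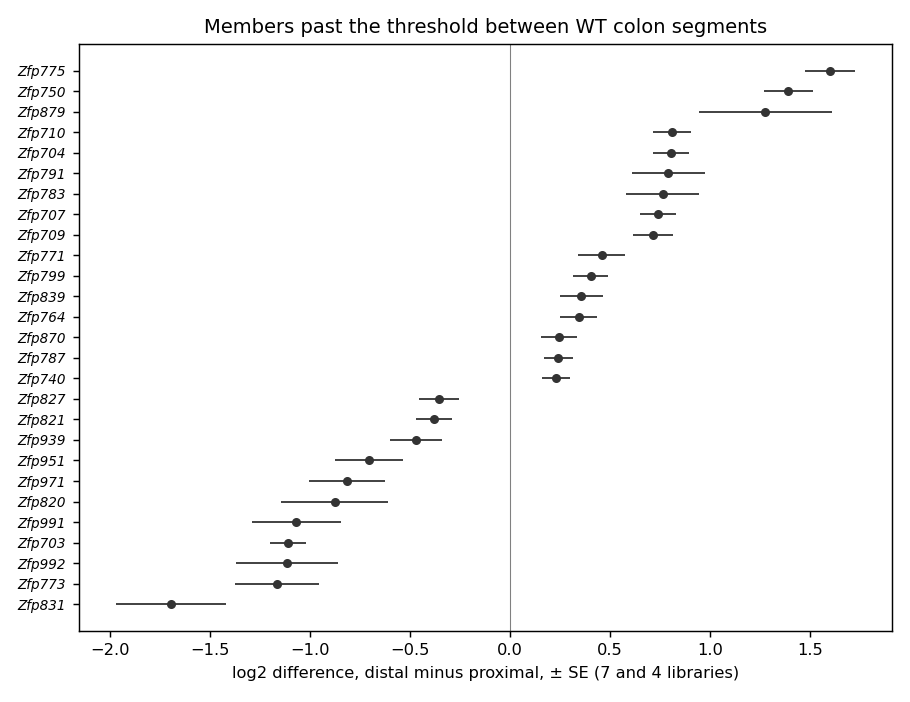
Log2 difference between distal and proximal WT crypts at baseline (x axis, distal minus proximal, ± SE, 7 and 4 libraries) for the 27 members past the threshold (y axis). Zfp775 at 1.60 and Zfp831 at -1.69 mark the ends.

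The proteins through which KRAB members act were given by a list of 28 corepressor and H3K9 methylation genes. After DSS, 0 of 26 tested passed in WT crypts of the null colony and 0 of 26 in T/T crypts. In Mtg16-null crypts 4 of 27 rose and 1 fell (limma), beside 13.5% and 10.6% of all genes, so that the count is no result about the list: Trim28 rose by 0.60 ± 0.16 (adjusted p = 0.025), from 7883 ± 621 (SD, n = 4) to 12144 ± 2664 (n = 4) scaled counts, Dnmt1, a DNA methyltransferase, by 0.37, and Chd3 and Chd4, remodelers of the NuRD complex, by 0.39 and 0.34. Tasor, a subunit of the HUSH silencing complex, fell by 0.43. Setdb1, at 2142 ± 172 and 2058 ± 125, had a difference of -0.06 (adjusted p = 0.71). In the WT crypts of the P209T colony the list had a median of -0.11, with 11 of 26 lower without overlap after DSS and 7 higher, beside 29.3% and 26% of all genes (description). In T/T tumors 11 of 27 rose and 2 fell, beside 33.3% and 28.6% of all genes, with the largest differences in Zfp57 (6.29), Smarcad1 (1.36) and Dnmt3b (1.21), named after their values were seen.

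The targeted gene, Cbfa2t3, which encodes MTG16, had 424 to 1095 normalized counts in distal Mtg16-null and 1027 to 1809 in WT crypts at baseline, and 427 to 595 and 1845 to 2519 after DSS. At baseline the ranges overlapped, so that 1 or more Mtg16-null libraries were not separated from WT by this gene. In distal crypts at baseline it had 1509 to 2196 in T/T and 937 to 1040 in WT. P209T is a point change that counts cannot show. Libraries had 32231389 to 74661922 assigned reads (40 libraries with recovered reads, median 46168060), so that a member at the limit of 10 rests on few reads. Of 8 epithelial markers, 0 were called in each of the 3 tested DSS comparisons. In the contrast that chose the members, 5 of 8 were higher after DSS without overlap, as given above.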

How the data were processed

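The series measured poly(A)-selected RNA by paired-end sequencing in 42 mouse libraries of 14 groups. The deposited values are a signal, gene counts that the authors divided by 1 size factor for each library within each of 9 tables: reads were trimmed with fastp 0.20.0, quantified with Salmon 1.3.0 against GENCODE mouse transcripts (GRCm38), summed by gene and scaled with DESeq2 1.26.0. The tables also hold the authors' fold changes and p-values, which were not used.

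Whole reads were recovered from these values where needed, and libraries of 2 tables were compared on recovered reads of genes listed in both, scaled together by TMM. Tests were limma 3.58.1 (trend, R 4.3.3) on log2(value + 1) over genes with a mean of at least 10, with Benjamini-Hochberg adjustment over all genes and a threshold of 0.05. For the within-table comparisons a count test had been planned in case the files held counts. The script was checked on simulated data. Alternatives were edgeR 4.0.16, median-of-ratios scaling, the low-count filter switched off, a pseudocount of 0.1, fits that dropped 1 library each, a replicate block, the library-name number as a covariate, and removal of trends with transcript length and, chosen after seeing the data, transcript GC. KRAB and finger patterns were found in translated GENCODE transcripts, and promoters were taken from RefSeq (GRCm38.p6).

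The members, lists and tests were chosen with earlier results of these data known. Named genes were Zfp758, Zfp943 and Zfp971; the 8 largest decreases, 5 largest increases and 5 highest levels in the table that chose the members; up to 5 members in each direction for each test; members of known function; and called corepressor genes. Replicate numbers come from the sample titles. Same-numbered libraries deviated together after DSS in Mtg16-null and WT mice (correlations 0.317 to 0.554 over 3 pairs), and these were treated as pairs, although no label pairs them.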

Additional observations from a re-analysis of the deposited data

Results flagged for a closer look

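Among 20 checks for a library far from the rest of its group, 3 were met, and chance alone meets about 1 in 20. All concern the 4 baseline distal WT libraries of the null colony. The median log2 difference of the members without KRAB was -0.097 in replicate 4 and 0.036 to 0.058 in the others. Replicate 1 had 482 scaled counts of Zfp758, against 327 to 350 in the others, and 662 of Zfp943, against 521 to 535.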

How the results depend on the processing

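The median of the WT libraries that chose the members moved from -1.86 to -0.44 with the GC trend removed, and lay between -2.21 and -1.66 when 1 library was left out. Counts of members past the threshold when 1 library was left out were 0 to 18 for DSS in WT of the null colony (0 with all), 24 to 62 in Mtg16-null (53), 0 to 5 in T/T (1), 15 to 39 for tumors (28) and 25 to 32 between segments (27). With the GC trend removed, the count was 2 in WT of the null colony (Zfp703 rose and Zfp738 fell). It was 4 in T/T (Zfp703, Zfp750 and Zfp991 rose and Zfp707 fell). The library-name number as a covariate left 11 between segments. With the replicate number as a block, the counts were 9 in WT of the null colony, 0 in T/T, 16 for tumors and 2 after DSS between Mtg16-null and WT. Only in the last were libraries treated as pairs, from their correlations and not from a label. Single genes changed sign as follows when 1 library was left out: in WT of the null colony, Zfp746 -0.012 to 0.20, Zfp750 -0.073 to 0.29, Zfp758 -0.17 to 0.086 and Zfp830 -0.13 to 0.049, and in Mtg16-null, Zfp711 -0.49 to 0.067 and Zfp746 -0.093 to 0.047. With the GC trend removed, signs changed for Zfp711 (0.11), Zfp758 (0.26) and Zfp830 (0.0021) in WT of the null colony, for Zfp711 (0.087) and Zfp758 (0.010) in Mtg16-null, for Zfp746 in T/T (-0.029) and for Zfp758 in tumors (-0.052). With the length trend removed they changed for Zfp746 in Mtg16-null (0.034) and Zfp830 in tumors (0.0035). The cause was not tested. For single genes, 881 values kept their direction and their side of the threshold, 31 lost a call, 8 gained one and 21 changed sign. The proximal mutant tables had no edgeR fit. Depth limits the members with few reads, of which 6 had a mean under 10 after DSS.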
